A study of Mus musculus with 21 samples.

Results

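The ventral pons on the side of a cut facial nerve was compared with the ventral pons of unoperated mice. The comparison took the 3 day 7 lesion libraries and the 3 day 0 control libraries out of 21 libraries in 7 groups of 3, chosen by their sample labels. The 3 contralateral libraries of day 7 were read beside them, because the question was what the lesion side shows beyond a shift that the uncut side shows too. All groups were CX3CR1GFP/wt mice on C57BL/6, in which 1 copy of the gene for the microglial fractalkine receptor Cx3cr1 is replaced by a green fluorescent protein. Day 0 mice were 8 weeks old and were not operated. Day 7 mice had the right facial nerve cut at the stylomastoid foramen at 8 weeks and were 9 weeks old when tissue was taken. Lesion tissue was always from the right, and contralateral and day 0 tissue always from the left, so side was not varied separately from lesion. The tissue block holds the facial nucleus together with parts of several reticular nuclei and of the spinal trigeminal nucleus, so the axotomized motor neurons are a part of what was sequenced. The labels do not say whether replicates came from separate mice, and p-values therefore measure the spread between these libraries, which may be technical.

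Facial motor neurons send their axons to the muscles of the face, and their cell bodies sit in the facial nucleus. Cutting the nerve outside the skull leaves the brain itself unopened. The injured neurons are known to switch from transmitter functions to regrowth, and microglia around them are known to divide, change shape and contact the cell bodies. Injury signals travel back along the axon to the nucleus, where transcription factors such as Atf3, Jun, Sox11 and Stat3 act on growth and survival genes.

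Depth differed between days: the unoperated libraries held 35874913 to 41448945 counts and the 6 libraries of day 7 held 17358868 to 23027360. Mitochondrially encoded transcripts took 3.05% to 3.60% of counts at day 0, 3.62% to 3.84% in the lesion libraries and 3.94% to 4.45% in the contralateral ones. Hindbrain markers were present in all 9 libraries in CPM, the count per 1e6 counts of the library scaled by TMM factors. The glycine transporter Slc6a5 ran from 408 to 637 CPM, Hoxb3 from 5.44 to 10.5 and the motor neuron filament Prph from 85.6 to 192. The forebrain gene Emx1 reached at most 0.231 CPM, and the cerebellar gene Gabra6 ran from 0.351 to 13.7 CPM. The choroid plexus transcript Ttr ran from 3.61 to 77.1 CPM in 8 libraries and stood at 4350 CPM in day 7 lesion replicate 3. Day 0 and day 7 columns are both named as lane 1 but share 2 index sequences, so they cannot come from 1 lane of 1 run. Sequencing run and age therefore change together with the operation in any comparison with day 0, and these cannot be told apart there.

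Of 22294 genes tested, 1815 were higher and 962 lower in the lesion pons than at day 0 at an adjusted p under 0.05 (edgeR, quasi-likelihood test), which is 8.14% and 4.32%. The contralateral pons of the same day was also far from day 0, with 1525 genes higher and 816 lower, or 6.84% and 3.66%. Lesion and contralateral pons differed in 347 genes higher and 21 lower on the lesion side, or 1.56% and 0.0942%. The lesion side's calls against day 0 were split by these results. A gene was called lesion-specific when the lesion pons differed in the same direction from day 0 and from the contralateral pons. This applied to 301 higher genes (1.35% of those tested) and 15 lower genes (0.0673%), together 11.4% of the 2777 calls. A further 1626 calls, or 58.6%, were a shared shift: the contralateral pons differed from day 0 in the same direction, and no lesion-to-contralateral difference was called. The remaining 834 calls, or 30.0%, were called against day 0 alone, and 1 gene, Col4a1, fell outside these classes. The comparisons with day 0 share the day 0 libraries, and the lesion-to-contralateral comparison shares the lesion libraries. The size of these classes is therefore a description and no independent evidence. In bulk tissue, a change in the number of cells of a type and a change in RNA per cell cannot be told apart.

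**Figure D1:**
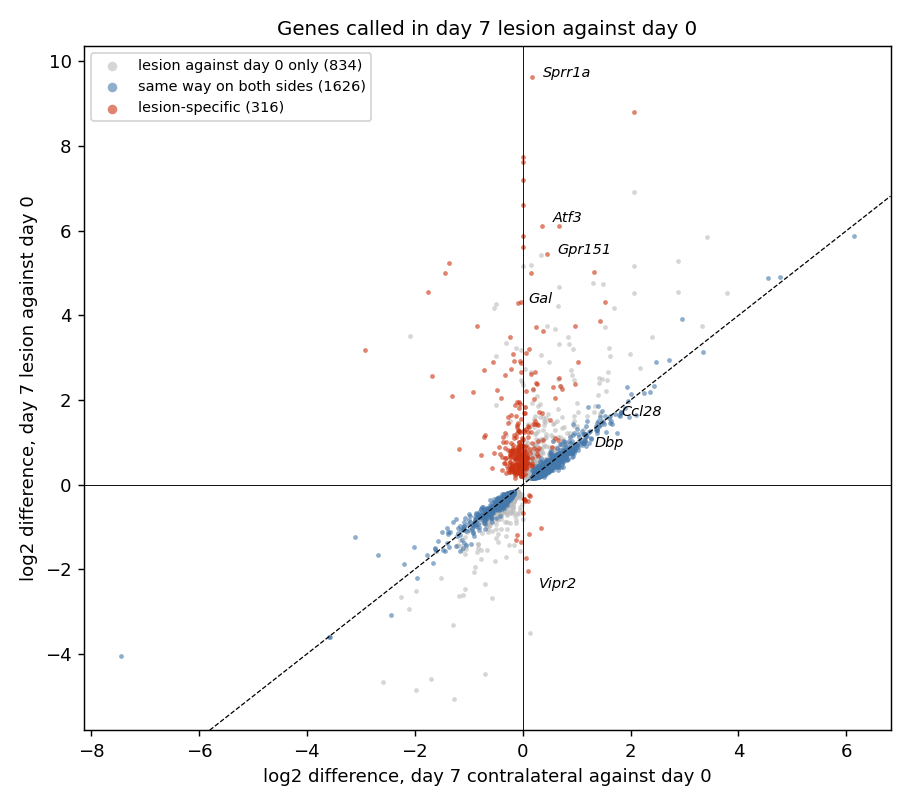
Each point is a gene called in day 7 lesion against day 0, with the log2 difference of the day 7 contralateral pons from day 0 on the horizontal axis and that of the day 7 lesion pons from day 0 on the vertical axis. Most of the 316 lesion-specific genes (red) lie near the vertical line at 0, the 1626 shared-shift genes (blue) lie near the dashed line of equal differences, and the 834 genes called against day 0 alone (grey) lie between.

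The class boundary is a threshold, not a gap. Dpysl3 (adjusted p = 0.0467), Sdk1 (0.0487) and Trim15 (0.0495) were the lesion-specific genes just inside it in the lesion-to-contralateral comparison. Golm1 (0.0547), Xaf1 (0.0564) and Slc7a7 (0.0575) were the genes just outside it.

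The 301 higher lesion-specific genes covered a wide range of sizes and levels. Their median log2 difference was 0.777 from day 0 and 0.849 from the contralateral pons, while the contralateral pons stood at -0.0509 from day 0. The median over all genes tested was -0.0138 for lesion against day 0. Of the 301, 29 had a log2 difference from day 0 of 3 or more, 27 lay from 2 to 3, 55 from 1 to 2, 110 from 0.5 to 1 and 80 below 0.5. In the lesion pons 21 averaged under 1 CPM, 106 from 1 to 10, 134 from 10 to 100 and 40 at 100 CPM or more. In 298 of the 301, all 3 lesion libraries lay above all 6 day 0 and contralateral libraries of day 7. Of all 10602 tested genes that lay above day 0 on the lesion side, 853 were separated in this way. The separation of the 298 follows in part from how the genes were chosen. Per library, the median log2 value of these genes against the day 0 mean was 0.72, 0.75 and 0.63 in the lesion libraries and -0.05, -0.02 and -0.06 in the contralateral ones. The 3 lesion libraries were close to each other, and all lay far above the contralateral ones.

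The genes with the largest rises included some that were close to absent from the day 0 and contralateral day 7 libraries. Sprr1a (chr3:92483952-92485895, minus strand, GRCm38), a small proline-rich protein of the cornified envelope that axotomized neurons are known to induce, stood at 0.248, 0.422 and 0.155 CPM at day 0 and at 0.308, 0.299 and 0.341 in the contralateral pons. In the lesion pons it reached 216, 295 and 168 CPM, a log2 difference from day 0 of 9.63 ± 0.46 (SE, adjusted p = 3.4e-09). No library of either other group reached 1 CPM, so the groups were far apart.

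Anxa10 (chr8:62057042-62123150, minus strand), a calcium-dependent membrane-binding annexin, had 0.359, 0.281 and 0.309 CPM at day 0 and 0.411, 0.249 and 0.389 in the contralateral pons. It had 11.3, 11.3 and 8.1 CPM in the lesion pons (log2 5.0 ± 0.24, adjusted p = 9.1e-14). Cd207 (chr6:83671215-83677857, minus strand), the langerin lectin of Langerhans cells, had no count in any of these day 0 or contralateral libraries. The lesion libraries held 0.923, 1.15 and 1.25 CPM, at least 44.0-fold above day 0 and at least 22.5-fold above the contralateral pons, taking 3 counts over a group as the floor. Lipn (chr19:34067358-34084918, plus strand), an epidermal lipase, was also without counts in both groups and stood at 1.04, 1.04 and 0.991 CPM in the lesion pons, at least 40.1-fold above day 0. These genes were low even at their highest, and Sprr1a alone among them passed 100 CPM.

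These 4 genes are shown by sequence because they are the ones among the 15 named rising genes whose promoter holds an AP-1 motif, the letters to which Jun and Atf3 family dimers are known to bind. The windows run over the 250 bases before the RefSeq start (GRCm38.p6), 5′ to 3′ on the gene's strand, with the motif TGACTCA or TGAGTCA in capitals. They lie at chr3:92485882-92486131 (minus) for Sprr1a, chr8:62123194-62123443 (minus) for Anxa10, chr6:83677858-83678107 (minus) for Cd207 and chr19:34067108-34067357 (plus) for Lipn.
Sprr1a: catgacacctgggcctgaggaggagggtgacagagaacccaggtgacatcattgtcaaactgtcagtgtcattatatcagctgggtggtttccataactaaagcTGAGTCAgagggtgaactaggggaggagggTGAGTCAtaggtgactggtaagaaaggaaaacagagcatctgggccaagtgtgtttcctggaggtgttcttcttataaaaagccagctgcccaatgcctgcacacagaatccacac
Anxa10: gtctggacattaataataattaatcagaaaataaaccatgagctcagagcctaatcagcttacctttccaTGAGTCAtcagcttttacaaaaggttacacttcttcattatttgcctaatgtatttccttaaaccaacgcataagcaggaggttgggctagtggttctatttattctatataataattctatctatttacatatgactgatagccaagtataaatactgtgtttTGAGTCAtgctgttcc
Cd207: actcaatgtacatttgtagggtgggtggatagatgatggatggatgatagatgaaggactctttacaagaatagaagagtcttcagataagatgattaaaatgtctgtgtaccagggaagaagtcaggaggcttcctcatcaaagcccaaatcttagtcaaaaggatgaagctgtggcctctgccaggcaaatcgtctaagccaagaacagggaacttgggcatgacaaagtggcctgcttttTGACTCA
Lipn: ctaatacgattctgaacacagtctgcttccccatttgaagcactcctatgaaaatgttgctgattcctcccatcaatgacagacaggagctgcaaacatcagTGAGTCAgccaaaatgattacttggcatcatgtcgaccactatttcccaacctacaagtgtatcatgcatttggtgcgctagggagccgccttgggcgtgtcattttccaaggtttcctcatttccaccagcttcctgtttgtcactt
Sprr1a holds TGAGTCA at 146 and at 116 bases before its start, and Anxa10 at 180 and at 16. Cd207 holds TGACTCA directly before its start, at 7 bases, and Lipn holds TGAGTCA at 148. Of the 15 named rising genes, 12 had a promoter in the RefSeq table, and AP-1 letters were found in 4 of them, TTCNNNGAA (STAT) in 2 and TGACGTCA (CRE) in 0. Both strands were searched, over 300 bases from 250 before to 50 after the start. Of all 32851 promoters in the table, 5.2% hold the AP-1 letters, 8.3% the STAT letters and 1.79% the CRE letters. These shares are per promoter, while the counts before them are per gene, and a gene can have more than 1 promoter. The counts and the shares were therefore not compared. A match is a description and was not tested as a binding site. Of the 301 rising genes 73.1% matched the table, below the 80% needed, so no share over them is given.

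The list counts from here on are to be read beside the shares over all genes. These were 8.14% higher and 4.32% lower than day 0, and 1.56% higher and 0.0942% lower than the contralateral pons. The injury transcription factors included 9 of 17 members higher than at day 0, 0 lower, and 7 higher than in the contralateral pons. Their median log2 difference from day 0 was 0.40. Atf3 (chr1:191170296-191218039, minus strand), a stress-induced member of the ATF family, had 0.994, 1.08 and 1.52 CPM at day 0 and 1.64, 1.34 and 1.61 in the contralateral pons. It reached 79.8, 96.0 and 72.2 CPM in the lesion pons, a log2 difference of 6.10 ± 0.29 (adjusted p = 2.2e-09). Jun, which pairs with Atf3 and overlaps the antisense Junos, was already present at 55.0, 54.1 and 56.4 CPM at day 0 and rose to 80.8, 87.7 and 85.6 (log2 0.62 ± 0.09, adjusted p = 3.4e-05). Jun thus rose from a high base and Atf3 from near 1 CPM.

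Sox11 (chr12:27334264-27342574, minus strand), a developmental regulator of neurite growth, rose from 4.47, 5.29 and 4.90 CPM to 17.3, 17.1 and 13.3 (log2 1.69 ± 0.13, adjusted p = 5.1e-10). The cytokine signalling inhibitor Socs3 rose by log2 1.73 ± 0.21 and the cAMP-responsive Crem by 0.76 ± 0.09. Stat3, the signal transducer of gp130 cytokines, rose by log2 0.26 ± 0.06 (adjusted p = 0.0031) and exceeded the contralateral pons by 0.37 (adjusted p = 0.00023). Creb1 was higher than day 0 on both sides, at log2 0.30 in the lesion and 0.39 in the contralateral pons, and is a shared-shift gene. Ddit3 and Atf5, factors of the unfolded protein response, were not called, at log2 0.08 and 0.01. The list of heat shock and endoplasmic reticulum stress genes had 1 of 16 members higher, and that member, Dnajb9, was higher on both sides.

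Growth and cytoskeleton genes build and steer axons. Of 20 members, 14 were higher and 1 lower than at day 0, 11 were higher than in the contralateral pons, and the contralateral pons had 1 higher and 1 lower. The beta-tubulin Tubb6 rose from 11, 13 and 11.1 CPM to 45.0, 49.9 and 42.5 (log2 1.96 ± 0.09, adjusted p = 9.1e-14), while the contralateral libraries held 11.1, 10.2 and 11.6. The lesion values of Tubb6 did not overlap with either group. Gap43, a growth cone protein, rose from 199, 242 and 220 CPM to 322, 339 and 305 (log2 0.55 ± 0.09, adjusted p = 0.00018). The microtubule regulator Stmn2 rose by log2 0.63 ± 0.06, Tubb2b by 0.69 ± 0.08, Tuba1a by 0.44 ± 0.06 and Tubb3 by 0.43 ± 0.07. Ankrd1 (chr19:36111961-36120099, minus strand), a muscle ankyrin repeat protein, rose from 0.138, 0.0234 and 0.284 CPM to 4.79, 5.62 and 4.09 (log2 5.01 ± 0.39). Marcks, an actin-binding kinase substrate, was higher on both sides, at log2 1.04 from day 0 on the lesion side and 0.91 on the contralateral side. Its relative Marcksl1 was lower on both, at log2 -0.27 and -0.38, and these were the 2 shared-shift genes of the list.

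**Figure D2:**
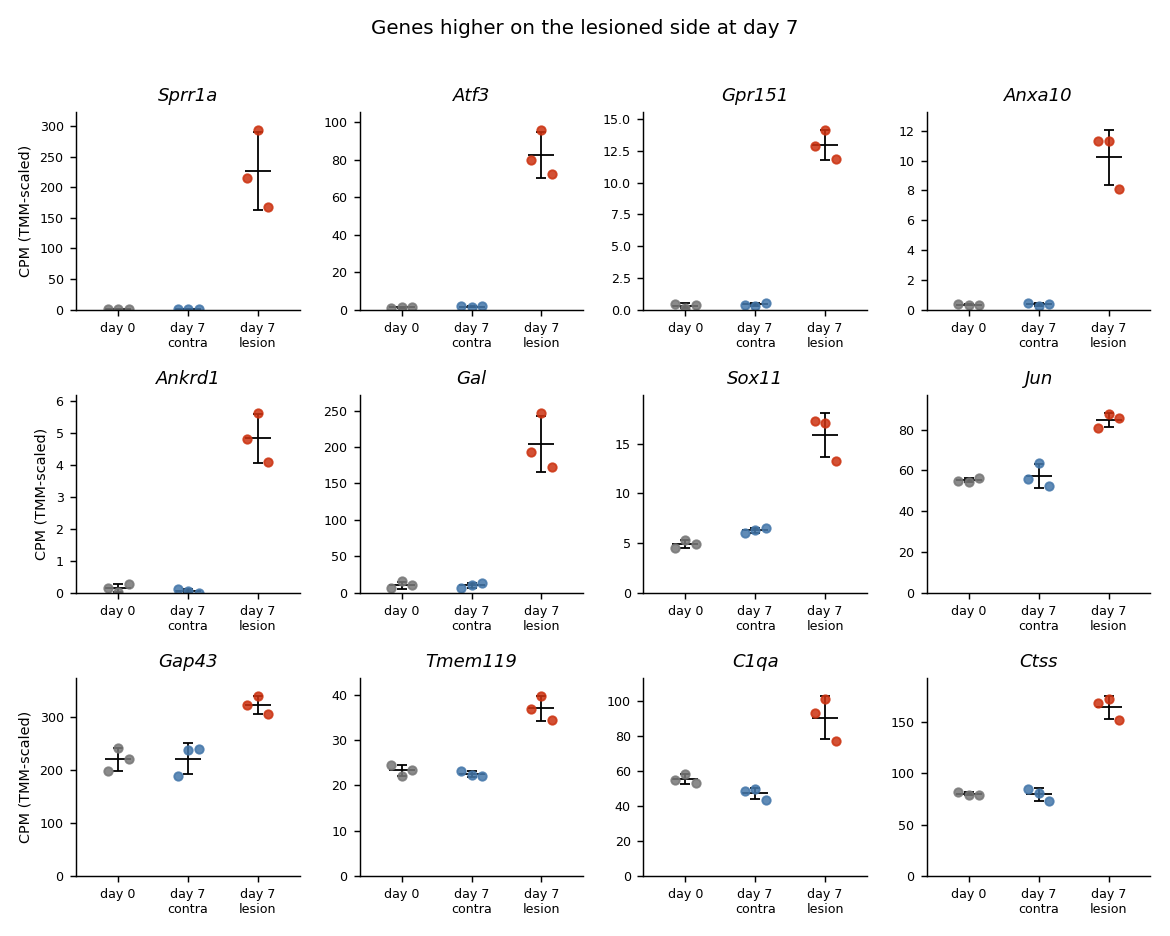
CPM of 12 genes in the 3 day 0, 3 day 7 contralateral and 3 day 7 lesion libraries, 1 panel a gene, with points for libraries, a dash for the mean and bars for the SD (n = 3). Sprr1a and Atf3 go from under 2 CPM to over 70 CPM, and Jun, Gap43, Tmem119, C1qa and Ctss rise from a level already present at day 0.

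Neuropeptides changed in a few members by large amounts. Of 16, 5 were higher than day 0, 3 of them also higher than the contralateral pons, and 0 were lower. Gal (chr19:3409915-3414544, minus strand), which encodes galanin, stood at 5.71, 15.4 and 9.98 CPM at day 0 and 6.16, 10.3 and 12.9 in the contralateral pons. It reached 193, 247 and 173 CPM in the lesion pons (log2 4.28 ± 0.33, adjusted p = 4.8e-07). Npy, neuropeptide Y, rose from 7.40, 16.1 and 5.08 CPM to 69.8, 101 and 73.9 (log2 3.09 ± 0.40, adjusted p = 9.6e-05). Fitted on the day 0 and day 7 libraries alone, its difference from the contralateral pons had an adjusted p of 0.057. Vip, vasoactive intestinal peptide, rose from 7.09, 4.90 and 5.44 CPM to 16.3, 14.7 and 18.7 (log2 1.52 ± 0.19), and its lesion-to-contralateral call was lost without contralateral replicate 3 (adjusted p = 0.050). Calca, the calcitonin gene-related peptide gene, rose by log2 1.08 ± 0.24 against day 0 (adjusted p = 0.0065), with no lesion-to-contralateral call (0.71, adjusted p = 0.29). Penk, Sst and Tac1 were not called, at log2 -0.18, -0.03 and 0.02.

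Trophic factor and cytokine receptors were called in both directions: 7 of 16 members were higher and 2 lower than at day 0, and 4 were higher than in the contralateral pons. Without lesion replicate 3, 6 were higher and 0 lower than day 0. Gfra1, the co-receptor for the trophic factor GDNF, rose from 72.3, 54.4 and 68.7 CPM to 166, 163 and 173 (log2 1.36 ± 0.11, adjusted p = 5.7e-08). Its signalling partner Ret rose from 146, 122 and 126 CPM to 205, 205 and 198 (log2 0.63 ± 0.08, adjusted p = 3.8e-06). Both parts of the GDNF receptor were thus higher on the lesion side, where no library overlapped with day 0 or the contralateral pons. The interleukin-4 receptor Il4ra rose by log2 0.85 ± 0.09 and the TNF receptor Tnfrsf1a by 0.35 ± 0.08. Lifr and Gfra2 were higher on both sides and belong to the shared shift. Among the ligands, Csf1, a growth factor for microglia, rose from 49.4, 49.8 and 50.4 CPM to 78.3, 73.4 and 64.0 (log2 0.53 ± 0.08, adjusted p = 2.7e-05). The contralateral libraries held 42.2, 42.9 and 41.5 CPM of Csf1. Of the 14 ligands listed, 3 were higher and 1 lower than day 0, and 1, Csf1, was higher than the contralateral pons. The others called against day 0 were Il6 (log2 2.50), Fgf2 (0.419) and Vegfa, which was lower. Fgf2 and Vegfa belong to the shared shift. With counts thinned to the smallest library, Il6 and Fgf2 lost their calls. The trophic factors Gdnf, Bdnf and Lif were not called, at log2 -0.58, -0.02 and -0.92.

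Of 20 genes of apoptosis and DNA damage, 4 were higher than day 0 and the same 4 were higher than the contralateral pons, with 0 lower. Pmaip1, a pro-apoptotic BH3 protein, rose from 1.96, 1.8 and 1.24 CPM to 7.91, 9.86 and 7.24 (log2 2.32 ± 0.19, adjusted p = 2.3e-09). Gadd45a, a growth arrest gene, rose by log2 1.29 ± 0.12. Ecel1, an endopeptidase that damaged neurons are known to induce, rose by log2 0.88 ± 0.18. Fitted on the day 0 and day 7 libraries alone, Ecel1 lost both calls (adjusted p = 0.062 against day 0 and 0.25 against the contralateral pons). With a replicate block, the adjusted p of Ecel1 against the contralateral pons was 0.083. It was 0.058 without lesion replicate 2 and 0.055 without contralateral replicate 2. Without contralateral replicate 2, the count against the contralateral pons was 2. Bax, Bbc3, Trp53 and Bcl2l11 were not called, and lay between -0.15 and 0.02 on the log2 scale.

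Genes that fell on the lesion side were few. The 15 lower lesion-specific genes had a median log2 difference of -0.66 from day 0 and -0.663 from the contralateral pons. In 14 of them the lesion libraries lay below all 6 others, which follows in part from how they were chosen. Of all 11690 tested genes that lay below day 0 on the lesion side, 375 were separated in this way. Vipr2 (chr12:116077726-116146261, plus strand), a receptor for vasoactive intestinal peptide, stood at 8.42, 6.11 and 7.68 CPM at day 0 and 7.80, 8.72 and 7.30 in the contralateral pons. It had 1.33, 1.44 and 2.50 CPM in the lesion pons (log2 -2.04 ± 0.25, adjusted p = 9e-06). Kcnj14 (chr7:45816460-45824782, minus strand), an inward rectifier channel known from cranial motor nuclei, went from 14.1, 12.4 and 14.1 CPM to 2.77, 3.63 and 5.65 (log2 -1.72 ± 0.19, adjusted p = 1.6e-06). In both genes lesion replicate 3 was the highest of the lesion libraries.

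The synaptic protease Prss12 went from 10.7, 8.97 and 11.9 CPM to 4.04, 3.73 and 4.57 (log2 -1.35 ± 0.16). The NMDA receptor subunit Grin3b (log2 -1.30 ± 0.18), the serotonin-gated channel Htr3a (-1.20 ± 0.17) and the vitamin D receptor Vdr (-1.15 ± 0.26) also fell. The call of Vdr against the contralateral pons was lost without lesion replicate 2 (adjusted p = 0.066). Fgf1, the acidic fibroblast growth factor, fell from 333, 332 and 392 CPM to 275, 254 and 285 (log2 -0.38 ± 0.07).

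Chodl (chr16:78930948-78951733, plus strand), a marker of fast motor neurons, had 22.4, 18.4 and 20.8 CPM at day 0 and 7.21, 6.42 and 15.9 in the lesion pons (log2 -1.03 ± 0.29, adjusted p = 0.030). With the day 0 and day 7 libraries alone, Chodl was called in neither comparison. The call of Chodl was also lost when some single libraries were left out. The adjusted p against day 0 was 0.085 and 0.069 without unoperated replicates 1 and 3, and 0.11 and 0.13 without lesion replicates 1 and 2. Against the contralateral pons it was 0.13 without lesion replicate 1 or 2, 0.14 without contralateral replicate 2 and 0.080 without contralateral replicate 3. Mmp9 (log2 -0.66 ± 0.15) lost its lesion-to-contralateral call without lesion replicate 2 or 3 (adjusted p = 0.17 and 0.12) and without contralateral replicate 1 or 2 (0.052 and 0.16). Rab3b (log2 -0.37 ± 0.10) lost it without lesion replicate 1 or 3 (0.11 and 0.085) and without contralateral replicate 2 or 3 (0.093 and 0.17).

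**Figure D3:**
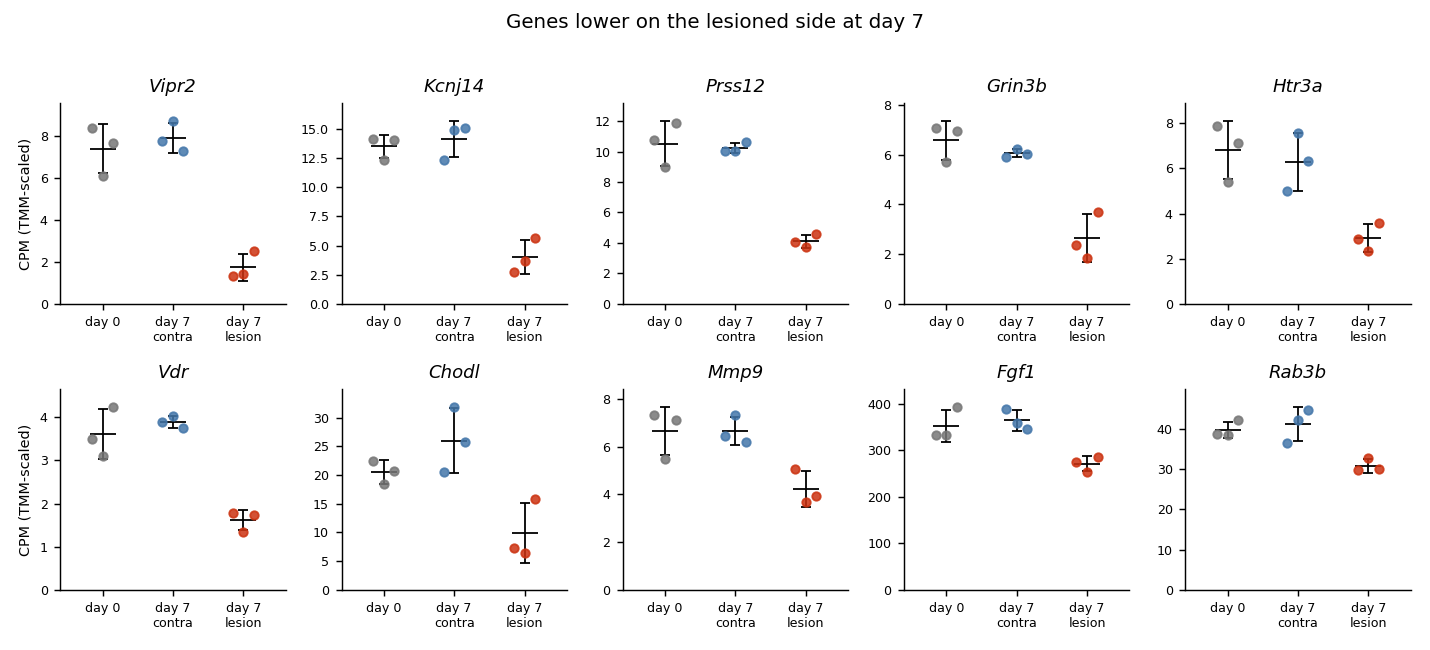
CPM of the 10 named genes with a lower level in the day 7 lesion pons, in the 3 day 0, 3 day 7 contralateral and 3 day 7 lesion libraries, with points for libraries, a dash for the mean and bars for the SD (n = 3). In each panel the 3 lesion libraries lie below the 6 others, and for Chodl, Kcnj14 and Vipr2 lesion replicate 3 is the highest of the 3.

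Among 18 motor neuron transmitter and identity genes, 6 were lower and 1 higher than at day 0, and 5 were lower than in the contralateral pons. The contralateral pons itself had 1 higher and 0 lower. Without lesion replicate 3, 8 members were lower than day 0 and 6 lower than the contralateral pons, and without lesion replicate 2 the latter count was 2. Chat (chr14:32408203-32465989, minus strand), the enzyme that makes acetylcholine, stood at 37.7, 30.7 and 32.3 CPM at day 0, 26.3, 30.2 and 36.3 in the contralateral pons and 13.8, 13.9 and 25.5 in the lesion pons. Its log2 difference from day 0 was -0.90 ± 0.22 (adjusted p = 0.011). It was not called against the contralateral pons (-0.79, adjusted p = 0.13), but it was with a replicate block (-0.835, adjusted p = 0.00024) and without lesion replicate 3 (-1.16, adjusted p = 0.0011). Its call against day 0 was lost without lesion replicate 2 (adjusted p = 0.061) and with the day 0 and day 7 libraries alone (0.072). The choline transporter Slc5a7 had 88.5, 59.2 and 75.6 CPM at day 0 and 32.0, 31.9 and 66.1 in the lesion pons. It was not called in either comparison (adjusted p = 0.11 and 0.076), and with a replicate block it was called against the contralateral pons (log2 -1.24, adjusted p = 0.019). In both cholinergic genes lesion replicate 3 was the highest of the lesion libraries. The acetylcholinesterase gene Ache was lower than day 0 (log2 -0.30 ± 0.05), with no lesion-to-contralateral call (-0.15, adjusted p = 0.34).

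The list did not move as a whole. Prph, a peripheral neuron filament that injured neurons are known to raise, was higher than day 0 (131, 152 and 192 CPM against 93.8, 86.9 and 94.6, log2 0.79 ± 0.18, adjusted p = 0.0096). It was not called against the contralateral pons (0.65, adjusted p = 0.14). The motor nucleus transcription factors Isl1 and Tbx20 were not called, at log2 -0.28 and 0.34. The neurofilament Nefl was not called against day 0 (0.05) and was lower than the contralateral pons (-0.22, adjusted p = 0.042), where it was higher than at day 0 (0.26). The general neuronal marker Rbfox3 was not called, at 137, 121 and 118 CPM at day 0 and 141, 132 and 139 in the lesion pons.

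Genes of resting microglia rose as a broad group. Of 18 homeostatic microglia genes, 12 were higher than day 0 and 12 higher than the contralateral pons, with 0 lower in either, and their median log2 difference from day 0 was 0.50. In the contralateral pons 1 was higher and 1 lower than day 0. The summed level of the list was 449, 433 and 458 CPM at day 0, 434, 414 and 385 in the contralateral pons and 639, 626 and 559 in the lesion pons, with no overlap. Tmem119 (chr5:113793729-113800516, minus strand), a surface protein of microglia, rose from 24.5, 22 and 23.4 CPM to 36.8, 39.7 and 34.4 (log2 0.67 ± 0.09, adjusted p = 6.7e-06). P2ry12 rose by log2 0.72 ± 0.11, Trem2 by 0.68 ± 0.11, Csf1r by 0.37 ± 0.08 and the integrin subunit Itgam by 0.99 ± 0.11. Cx3cr1, of which these mice keep 1 intact copy, had 26.8, 22.2 and 25.1 CPM at day 0 and 33.3, 30.4 and 27.5 in the lesion pons. It was not called against day 0 (log2 0.30, adjusted p = 0.19) and was called against the contralateral pons (0.59, adjusted p = 0.043). With a replicate block Cx3cr1 was called against day 0 too (adjusted p = 0.042). With 1 lesion or contralateral library left out, its adjusted p against the contralateral pons ran from 0.047, without lesion replicate 3, to 0.26, without contralateral replicate 3.

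Of 20 genes of activated microglia, 4 were higher than day 0 and 4 higher than the contralateral pons, the latter 0 without lesion replicate 2. The cystatin Cst7 had 0.0828, 0.0937 and 0.0774 CPM at day 0 and 0.635, 0.796 and 0.215 in the lesion pons, and lost its lesion-to-contralateral call when any 1 of lesion replicates 1 and 2 or the contralateral libraries was left out (adjusted p from 0.090 to 0.22). Cd63, a tetraspanin of late endosomes, rose by log2 0.51 ± 0.07. Its lesion-to-contralateral call was lost without lesion replicate 2 (adjusted p = 0.067) and without contralateral replicate 3 (0.059). Apoe, Spp1, Gpnmb and Clec7a, which mark microglia in disease models, were not called, at log2 0.03, -0.08, -0.10 and 0.56.

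Complement and lysosomal genes rose with the microglial ones. Of 16 complement genes, 8 were higher than day 0 and 5 higher than the contralateral pons. Without lesion replicate 3 these counts were 5 and 5. The chains of C1q, which starts the classical cascade, were among them. C1qa (chr4:136895917-136898803, minus strand) had 54.6, 58.5 and 52.9 CPM at day 0, 48.3, 49.7 and 43.6 in the contralateral pons and 93.5, 101 and 77.0 in the lesion pons (log2 0.71 ± 0.08, adjusted p = 1.7e-07). C1qb rose by log2 0.88 ± 0.10 and C1qc by 0.78 ± 0.09. C3, the central component of the cascade, was not called, at 12.3, 11.9 and 13.8 CPM in the lesion pons and 11.2, 15.6 and 13.6 at day 0. Of 20 lysosome and phagocytosis genes, 11 were higher and 1 lower than day 0, and 10 were higher than the contralateral pons. The cysteine protease Ctss (chr3:95526786-95556403, plus strand) rose from 82.3, 79.3 and 79.3 CPM to 169, 173 and 152 (log2 1.03 ± 0.08, adjusted p = 2.6e-10), and Grn, Laptm5 and Ctsd rose by 0.55, 0.63 and 0.39. Lamp2 was higher on both sides, at log2 0.54 and 0.44.

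Chemokines changed from levels near the limit of detection. Of 17 chemokine and cytokine genes, 6 were higher and 1 lower than day 0, and 2 were higher than the contralateral pons. With the day 0 and day 7 libraries alone 8 and 5 were higher, and with counts thinned to the smallest library 3 were higher than day 0. Ccl2, a chemokine for monocytes, had 0.193, 0.398 and 0.232 CPM at day 0 and 2.25, 1.69 and 1.16 in the lesion pons (log2 2.57 ± 0.44, adjusted p = 0.00021). Ccl7, a related chemokine, rose from 0.193, 0.750 and 0.180 CPM to 2.19, 2.44 and 3.10 (log2 2.74 ± 0.37). Tnf and Il1b were not called and stayed under 0.26 CPM in all 9 libraries. Marker genes of lymphocytes summed to 5.28 to 8.37 CPM over the 9 libraries, and those of blood myeloid cells and border macrophages to 19.7 to 28.6 CPM. The T cell receptor constant gene Trbc2 rose from 0.138, 0.0703 and 0.180 CPM to 1.04, 1.24 and 0.690, and it was the 1 lymphocyte gene of 16 called. Its lesion-to-contralateral call was lost without lesion replicate 2 (adjusted p = 0.065) or contralateral replicate 1 (0.066).

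Genes of antigen presentation and of the interferon response were counted in the same way. Of 13 genes of MHC class I presentation, 5 were higher than day 0 and 1 was higher than the contralateral pons. The counts were 7 and 5 with the day 0 and day 7 libraries alone, and 6 and 2 without lesion replicate 3. In the deposited matrix with limma 2 were higher than day 0, but H2-D1 and H2-K1 had no value in that fit. That count is therefore not out of the same 13 genes. B2m, the invariant light chain, had 86.3, 101 and 92.8 CPM at day 0, 110, 117 and 105 in the contralateral pons and 154, 152 and 142 in the lesion pons. It was called against day 0 (log2 0.68 ± 0.11, adjusted p = 0.00039) and not against the contralateral pons (0.43, adjusted p = 0.072), although the groups did not overlap. H2-D1, a class I heavy chain, was called against both, at log2 0.39 and 0.34. The latter call was lost without lesion replicate 1 or 2 (adjusted p = 0.11 and 0.053) or contralateral replicate 3 (0.069). Of 10 class II genes 3 were higher than day 0 and 0 were called against the contralateral pons.

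Of 27 interferon response genes, 8 were higher than day 0 and 3 higher than the contralateral pons in the fit of all 21 libraries. With the spread estimated from the day 0 and day 7 libraries alone, 21 were higher than day 0 and 15 higher than the contralateral pons. Without lesion replicate 3 the counts were 5 and 1. Bst2, an antiviral membrane protein, rose from 5.13, 6.58 and 6.09 CPM to 11.8, 12.5 and 12.1 (log2 1.03 ± 0.24, adjusted p = 0.0090). Ifi27l2a rose from 2.04, 2.37 and 2.22 CPM to 6.64, 4.78 and 6.03. Its adjusted p against the contralateral pons was 0.033, and 0.093 with a replicate block. It ran from 0.090 to 0.18 when lesion replicate 1 or 3 or any 1 contralateral library was left out. Irf7, a regulator of interferon genes, had 5.33, 4.64 and 4.98 CPM at day 0 and 18.1, 12.1 and 9.70 in the lesion pons, and was not called (adjusted p = 0.074). Lesion replicate 1 was the highest for Irf7.

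Astrocyte and cell division genes moved in a minority of members. Of 20 reactive astrocyte genes, 7 were higher and 1 lower than day 0, and 5 were higher than the contralateral pons. The protease inhibitor Serpina3n rose from 51.8, 68.8 and 47.5 CPM to 118, 127 and 160 (log2 1.27 ± 0.14, adjusted p = 1.3e-05). The hyaluronan receptor Cd44 rose from 6.24, 6.65 and 8.79 CPM to 31.6, 33.1 and 23.4 (log2 2.02 ± 0.15), and the metalloprotease inhibitor Timp1 by 2.24 ± 0.23. Gfap, the astrocyte filament, was not called: it had 800, 1150 and 1050 CPM at day 0, 678, 990 and 718 in the contralateral pons and 870, 1050 and 871 in the lesion pons. Of 25 cell division genes 1, Mcm6, was higher than day 0 (log2 0.44 ± 0.09) and 0 differed from the contralateral pons. Mki67, a marker of dividing cells, had 0.808, 1.79 and 1.47 CPM in the lesion pons and 1.02, 1.36 and 0.980 at day 0.

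The lesion-specific genes were then read in the libraries of days 14 and 30. Those libraries were not compared in choosing the genes, but they entered the same fit, and so the estimate of spread and the filter on counts. With the day 0 and day 7 libraries alone, 284 genes were lesion-specific, and 249 of them were among the 316. Over all genes, the lesion side differed from the contralateral side of the same day in 2.58% higher and 1.31% lower at day 14 and in 1.04% higher and 0.121% lower at day 30. For day 30, columns carry side letters opposite to the labelled sides, and the sample descriptions, which assign columns to sides, were followed. The direction of every day 30 value rests on that. Of the 301 higher genes, 261 (86.7%) were called higher at day 14 and 122 (40.5%) at day 30, and all 301 and 290 had the same sign. Of the 15 lower genes, 13 (86.7%) were called lower at day 14 and 12 (80%) at day 30, all with the same sign. None was called in the opposite direction on either day.

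Against the day 0 mean, the median log2 value of the 301 genes was 0.70, 0.60 and 0.69 in the day 14 lesion libraries and 0.39, 0.40 and 0.47 in those of day 30, and from -0.07 to 0.02 in the 6 contralateral libraries of those days. Sprr1a exceeded the contralateral side by log2 9.83 at day 14 and 6.96 at day 30, and Atf3 by 5.84 and 3.45. Ctss stood at 1.24 and 1.09, close to its day 7 value of 1.04. Crem, Gap43 and Stmn2 were called at day 14 (0.52, 0.73 and 0.67) and not at day 30 (0.15, 0.17 and 0.19). Whether single genes differ between the days was not tested. Cst7 exceeded the contralateral side by log2 2.91, 3.48 and 4.27 at days 7, 14 and 30, and Itgax, an integrin of activated microglia that was not called against the contralateral pons at day 7, by 0.85, 2.67 and 3.52.

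The shift that both sides shared was larger in number and smaller in size. It comprised 1102 higher genes (4.94% of those tested) and 524 lower genes (2.35%). Their median log2 difference from day 0 was 0.388 on the lesion side and 0.431 on the contralateral side for the higher genes, and -0.406 and -0.389 for the lower ones. The share of higher genes depends on scaling: with library totals in place of TMM factors the shared shift held 988 higher and 726 lower genes, or 57.6% higher in place of 67.8%. The contralateral calls were then 1339 higher and 1142 lower, or 54.0% higher in place of 65.1%. The genes were chosen against the same day 0 libraries, so the next counts are a description from which nothing is read. In 907 of the 1102 higher genes (82.3%), all 18 libraries of operated mice lay above the 3 day 0 libraries, against 5.14% of all genes. In 292 of the 524 lower genes (55.7%), all 18 lay below, against 2.83%. Of the lower genes 14.3% were annotated as pseudogenes, where the share was 13.3% over all tested genes that lay below day 0 on the lesion side, called or not. Of the shared higher genes 2.54% and of the lesion-specific higher genes 0.664% were pseudogenes, where the share was 6.85% over all tested genes that lay above day 0.

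Clock genes were called on both sides. Of 16 circadian clock genes, 10 were higher and 2 lower than day 0 on the lesion side, 9 higher and 2 lower on the contralateral side, and 0 differed between the sides. Dbp (chr7:45705088-45710203, plus strand, opposite Sphk2), a clock output factor, had 22.9, 24.5 and 27.9 CPM at day 0. It had 58.6, 57.3 and 48.7 in the contralateral pons and 58.4, 59.5 and 55.2 in the lesion pons (log2 1.20 ± 0.08 on the lesion side, 1.13 on the other). Arntl, a core activator of the clock, had 19.6, 16.5 and 19.2 CPM at day 0, 12.8, 10.9 and 10.9 in the contralateral pons and 11.2, 9.16 and 11 in the lesion pons. Dbp and Arntl moved in opposite directions and by like amounts on both sides. The time of day of tissue collection is not among the labels, and its part in the shift was not tested.

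Splicing and myelin genes were also called on both sides. Of 16 splicing and RNA-binding genes, 7 were higher on the lesion side and 9 on the contralateral side, and 0 differed between them. Without day 0 replicate 1 the contralateral count was 5. Srsf3, a splicing factor, went from 34.9, 31.8 and 39.3 CPM to 55.5, 61.1 and 64.7 in the lesion pons and 56.4, 63.5 and 65.4 in the contralateral pons. Of 16 oligodendrocyte and myelin genes, 7 were lower and 1 higher on the lesion side, 4 lower and 1 higher on the contralateral side, and 0 differed between the sides. The number lower was 3 on the lesion side without day 0 replicate 3 or lesion replicate 3, and 2 on the contralateral side without contralateral replicate 3. Mbp, the major myelin basic protein, had 14300, 15100 and 15200 CPM at day 0, 12400, 12500 and 10800 in the contralateral pons and 11200, 12500 and 11000 in the lesion pons. Snap25, a synaptic vesicle fusion protein, was higher at log2 0.42 and 0.52. Of 13 protein-coding mitochondrial genes, 1 was higher and 2 were lower on the lesion side, 2 and 2 on the contralateral side, and 0 differed between them. The mitochondrial tRNA gene mt-Tc went from 3.92, 2.32 and 5.57 CPM to 22.1, 19.0 and 18.2 in the lesion pons and 24.9, 18.7 and 19.8 in the contralateral pons. Of 12 cerebellum genes, 1 was higher on the lesion side and 3 on the contralateral side, and 0 differed between them. Operation, age and sequencing run cannot be told apart as causes of the shared shift. The parts of collection time and of the borders of the tissue block were not tested.

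**Figure D4:**
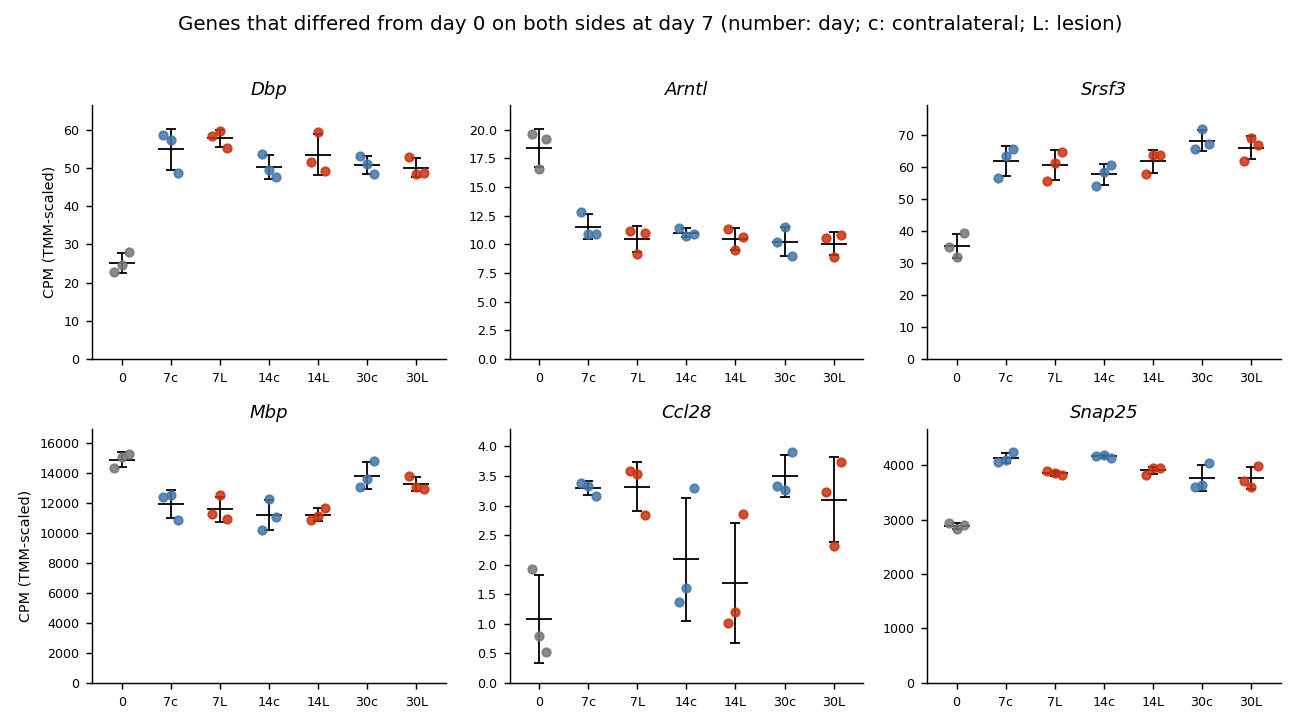
CPM of 6 shared-shift genes in the 7 groups, with points for libraries, a dash for the mean and bars for the SD (n = 3). The day 0 libraries lie below all 18 libraries of operated mice for Dbp, Srsf3 and Snap25 and above all 18 for Arntl, while for Ccl28 and Mbp some operated libraries overlap with day 0.

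Genes called on the lesion side against day 0 alone comprised 412 higher and 422 lower genes. Without lesion replicate 3, 209 of the 412 and 191 of the 422 were still called against day 0, whereas 275 of the 301 higher and 14 of the 15 lower lesion-specific genes were. Without lesion replicate 2 these counts were 214, 132, 263 and 12. Leaving out any 1 of the day 0 libraries gave 209 to 243, 187 to 265, 273 to 280 and 11 to 13 in the same order. Thinning counts to the smallest library gave 204, 257, 274 and 13. Of the lesion-specific genes 245 higher and 10 lower were still called in both comparisons without lesion replicate 3, and 214 and 8 without lesion replicate 2. Choroid plexus genes led this class. Folr1, a folate receptor of that epithelium, had 0.519, 0.299 and 31.2 CPM in the 3 lesion libraries, Kcne2 had 0.866, 0.448 and 29.9, and Car12 had 1.21, 0.896 and 32.5. The summed level of 11 choroid plexus genes was 4710 CPM in lesion replicate 3, whereas the 8 others ranged from 21.9 to 113 CPM. Of the 11 listed genes 3, among them Aqp1 and Sostdc1, were called higher than day 0. Without that library 0 of the 11 were called, and their median log2 difference was 0.134. With a replicate block, Folr1 and Kcne2 had adjusted p-values of 0.097 and 0.073, and neither was called without any 1 of the day 0 libraries (0.054 to 0.13). Lesion replicate 3 alone held them at this level.

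Without lesion replicate 3, 12 homeostatic microglia genes were higher than day 0 and 13 higher than the contralateral pons. In the same setting 12 growth and cytoskeleton genes were higher than day 0 and 11 than the contralateral pons. Over the alternatives with no log2 threshold, the fewest were 11 and 9 microglia genes and 12 and 10 growth genes. The 9 were found without lesion replicate 2, where 7 lysosome and phagocytosis genes were higher than the contralateral pons.

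Among genes that differed from the contralateral pons with no call against day 0, the lesion side was higher in 45 and lower in 6. They include Cybb, a subunit of the phagocyte oxidase, which had 0.911, 1.29 and 1.42 CPM at day 0, 0.616, 0.797 and 0.681 in the contralateral pons and 1.85, 1.64 and 1.42 in the lesion pons. The call of Cybb was lost when lesion replicate 1 or 2 or any 1 contralateral library was left out (adjusted p from 0.059 to 0.13), with counts thinned to the smallest library (0.24) and with limma-voom (0.080). The mean of the day 0 libraries lay between those of the sides.

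**Figure D5:**
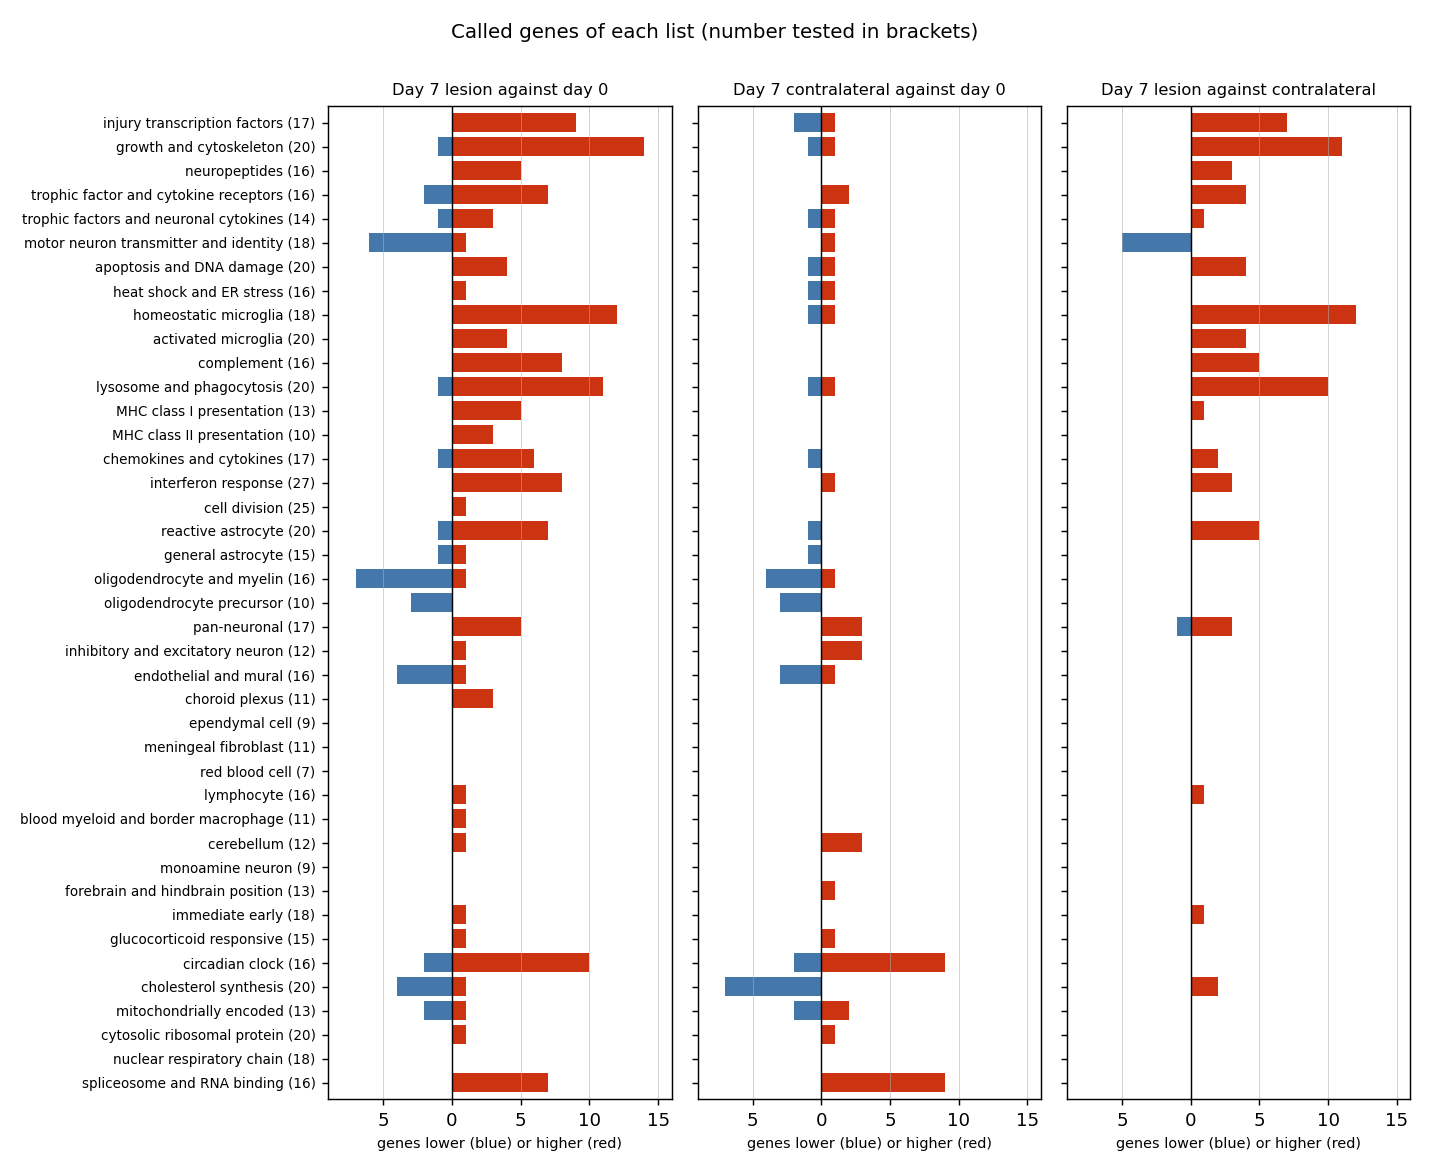
Bars give the number of members called higher (red) or lower (blue) in each gene list, with the number tested in brackets, for lesion against day 0, contralateral against day 0 and lesion against contralateral at day 7. Growth, microglia and lysosome lists are filled in the first and last comparison and nearly empty in the contralateral one, while clock and splicing lists are filled in both comparisons with day 0 and empty in the last.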

How the data were processed

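Polyadenylated RNA of mouse ventral pons was sequenced in 21 libraries, 3 in each of 7 groups set by the sample titles. Per the labels' protocols, a stranded kit was used on 300 ng of total RNA, and reads were single and 50 bases long. Per the submitters' processing notes and design text, the authors used CASAVA 1.8.2 for base calls, the Rsubread aligner with GRCm38.p4 and a GENCODE annotation, and featureCounts for counts per gene. Whether featureCounts used strand is not given in the sources used here. The deposited table holds raw counts for 45664 gene symbols, of which 32815 had a count. The deposited log2 CPM matrix holds 22294 genes, after the authors' filter at the 32nd percentile of summed counts per the design text, and was used as an alternative.

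Genes with a summed count of at least 30 over the 21 libraries were tested (22294), in R 4.3.3, with the quasi-likelihood test of edgeR 4.0.16. The fit was robust, used TMM factors and had 1 coefficient per group. Tests were two-sided, p-values were adjusted over all genes by Benjamini-Hochberg, and genes under 0.05 were called. For a single value, permuting 3 against 3 libraries exactly gives 0.1 at best. Standard errors are the absolute log2 difference over the square root of F. Per-library medians use log2 of CPM + 0.5. Scripts were tested on simulated data.

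The comparisons, the gene lists and the classes were chosen with earlier results of these data known, and lists are described by counts and medians without a set test. Named genes are the 15 rising and 10 falling lesion-specific genes with the largest difference from day 0, at least 1 CPM on average and no overlap with the 6 other libraries; the 6 rising and 6 falling shared-shift genes with the largest smaller difference; 4 in each direction of the classes called in 1 comparison alone; up to 4 members of each list by adjusted p; and marker genes. Other genes were named after their values were seen, most of them as list members. Symbols of predicted genes are not named. Not all genes that the rule names are reported here. All 159 named genes were located in a GENCODE annotation of GRCm38. In 10 of them an exon overlaps with another gene of the same strand, such as Itgam with Gm49368. Of the 159, 31 lie opposite another gene, such as Gfra1, Gadd45a, Il4ra, Grn, Crem, Grin3b, Prss12 and Arntl. A gene can be in both counts, and reads of the partners may not be told apart. Promoter sequences are RefSeq's for GRCm38.p6.

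Lesion and contralateral libraries of day 7 share replicate numbers. After group means were removed, libraries with the same number correlated at 0.273, 0.239 and 0.167 over 15480 genes. All other pairs were negative, which positive same-number values favour once means are removed. Day 0 and lesion libraries with the same number correlated at -0.027, 0.179 and -0.139. With different numbers, lesion replicate 3 and day 0 replicate 1 reached 0.236, and lesion replicate 2 and day 0 replicate 1 -0.253. The correlations therefore do not settle whether the numbers pair the day 7 libraries. The main fit paired no libraries. The replicate block took the numbers as pairs without a label, and for comparisons with day 0 it used them across all groups. In all, 23 alternatives were run: 9 leave out 1 library, 13 were listed in advance (among them DESeq2 1.42.0 and limma 3.58.1) and 1 was added after the data were seen.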

Additional observations from a re-analysis of the deposited data

Results flagged for a closer look

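Genes whose 2 sides of day 7 both differed from day 0, and also from each other, by the test of the difference itself, are given here with the log2 difference of the lesion from the contralateral pons. In 6 genes the sides lay on opposite sides of day 0, higher in the lesion and lower in the contralateral pons: Cnst (0.52), F2rl1 (2.02), Fgd2 (1.27), Mical1 (0.57), Rhoc (0.73) and Rnf122 (0.96). Some of their calls against day 0 lay near the threshold. The adjusted p was 0.0449 (lesion) and 0.0349 (contralateral) for Mical1, and 0.0413 and 0.0252 for F2rl1. On the contralateral side it was 0.0492 for Fgd2 and 0.0290 for Cnst. For Rhoc and Rnf122 it was 0.0150 or less on both sides. F2rl1, a protease-activated receptor, had 0.856, 1.08 and 0.567 CPM at day 0, 0.308, 0.399 and 0.389 in the contralateral pons and 1.44, 1.49 and 1.55 in the lesion pons. In 5 genes both sides were higher than day 0 and the lesion side more so: Cacna2d1 (0.52), Cbfb (0.35), Chl1 (0.69), Nrep (0.56) and Zdhhc2 (0.41). The calcium channel subunit Cacna2d1 had 38.5, 41.6 and 38.1 CPM at day 0, 46.9, 61.9 and 69.3 in the contralateral pons and 82.9, 90.7 and 82.2 in the lesion pons. Col4a1, a basement membrane collagen that lies opposite Col4a2, was lower than day 0 on both sides and less so on the lesion side (0.32). It had 85.7, 72.2 and 78.2 CPM at day 0, 45.0, 52.3 and 46.6 in the contralateral pons and 59.7, 61.1 and 59.1 in the lesion pons. Its difference between the sides was not called without lesion replicate 1 or 2 (adjusted p = 0.057 and 0.073) or without contralateral replicate 1 or 3 (0.13 and 0.10).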

How the results depend on the processing

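Total counts of calls, both directions together, stayed within 1.5 times their reported value under all but 1 of the 23 alternatives. Requiring an absolute log2 difference of 1.7, the study's second threshold, left 178 genes for lesion against day 0, 75 for contralateral against day 0, 68 for lesion against contralateral, 60 lesion-specific and 22 shared-shift genes. Leaving out 1 library at a time gave 2035 to 2840, 1567 to 2335, 272 to 387, 233 to 305 and 1234 to 1508 in the same order. The numbers lower moved further. Without lesion replicate 2 they were 543 for lesion against day 0 (from 962), 10 for lesion against contralateral (from 21) and 9 lesion-specific (from 15). Without contralateral replicate 2 they were 425 for contralateral against day 0 (from 816), 12 for lesion against contralateral, 8 lesion-specific and 304 shared-shift (from 524). Without contralateral replicate 3 the contralateral number was 533, without day 0 replicate 1 the shared-shift number was 343, and in the deposited matrix 34 were lower against the contralateral pons. With a replicate block the counts were 3090, 2650, 388, 327 and 1848, and 301 of the 327 were lesion-specific without it. Beside the genes named with a blocked value, the block ended the calls of Cldn2, Aqp1 and Sostdc1 against day 0 (adjusted p = 0.099, 0.10 and 0.085) and of Ptger3, Rit2 and Kcnk3 against the contralateral pons (0.053, 0.053 and 0.051), among others. Over the 22 alternatives with no log2 threshold 222 to 313 of the 316 lesion-specific genes were found again. Over all alternatives, calls of named genes on the lesion side were lost 318 times, and 3 times the difference of a called gene changed sign. Without day 7 lesion replicate 3, Cldn2, Aqp1 and Sostdc1 stood at log2 -0.112, -0.0533 and -0.496 from day 0. With a day 0 library left out, where their calls were lost too, they stood at up to 5.22, 4.10 and 3.52. Depth limits genes with no count in a group, for which a fold is a lower bound.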
